A study of Drosophila melanogaster with 2 samples.

Results

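The ferritin, transferrin and metallothionein genes, together with the metal transporter gene Mvl, are among the Drosophila genes for storing, carrying or buffering metals such as iron, copper and zinc. The 10 genes were fixed by symbol and comprise 2 ferritin chains (Fer1HCH and Fer2LCH), 3 transferrins (Tsf1, Tsf2 and Tsf3), Mvl and 4 metallothioneins (MtnA, MtnB, MtnC and MtnD). All 10 were found among the 14001 genes measured, and 30 of their 31 annotated transcripts were matched to entries of the deposited tables.

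RNA was sequenced from larvae in the third instar that were homozygous for HP1c f04929, an allele of a gene that encodes a chromodomain protein of the heterochromatin protein 1 family. The larvae were kept at 25 °C and about 70% humidity on Jazzmix food, and the labels give neither their sex nor any further allele. The 2 libraries are numbered as replicates, and nothing says that they were separate cultures, so their spread may be technical. The other genotype of the series was not analysed here, so nothing below measures an effect of the mutation.

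In flies, ferritin is assembled in the secretory pathway from heavy chains, which oxidise iron, and light chains, which help to form the mineral core, and it is abundant in the gut, fat body and haemolymph. Transferrins are iron-binding proteins related to the iron carrier of vertebrate blood. Metallothioneins are very small cysteine-rich proteins that bind copper, zinc and cadmium, and their genes are switched on by the metal-sensing factor MTF-1.

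Replicates 1 and 2 held 39745145 and 45177298 estimated reads, of which entries named as rRNA took 12.1% and 2.55%. Both libraries expressed markers of larval tissues, with all 6 fat body and all 6 salivary glue genes at 1 TPM (transcripts per 1000000) or more, while none of the 3 adult yolk genes reached that level in both. The libraries differed in the glue genes and in antimicrobial genes, which do not mark a tissue. The summed level of the 6 glue genes was 46390 TPM in replicate 1 and 92697 TPM in replicate 2, and that of 14 antimicrobial genes was 588 and 135 TPM. TPM is corrected for transcript length and can be compared between genes, though less safely for very short transcripts such as those of the metallothioneins. Errors are SD over the 2 libraries, and intervals are 95% intervals that cover counting error only.

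The 10 genes spanned more than 2 orders of magnitude in level, from the ferritin chains at the top to Tsf3 at the bottom. All 10 reached 1 TPM in both libraries. Their summed level was 4870 TPM in replicate 1 and 5136 TPM in replicate 2, with a mean of 5003 ± 189 TPM (n = 2), which is 0.487% and 0.514% of the transcripts. With the rRNA entries left out and TPM rescaled, the order of the libraries turned, at 5287 TPM in replicate 1 and 5214 TPM in replicate 2. The ferritin pair made up 51.8% ± 0.775 of this sum, the 4 metallothioneins 41.6% ± 2.31 and the 3 transferrins 5.32% ± 1.67 (n = 2). By reads the split was different, with 71.5% ± 2.31 in the ferritin pair and 9.51% ± 0.765 in the metallothioneins, whose transcripts are much shorter. The split by TPM also depended on the length used. With annotated in place of the shorter effective length, the metallothionein means fell to between 0.595 and 0.713 of their TPM values. The means of Fer1HCH and Fer2LCH rose to 1.13 and 1.12 of theirs, so the metallothionein share was smaller on that scale. In RNA from many tissues, a lower level can stand for fewer cells of a type or for less RNA per cell, and these cannot be told apart.

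**Figure D1:**
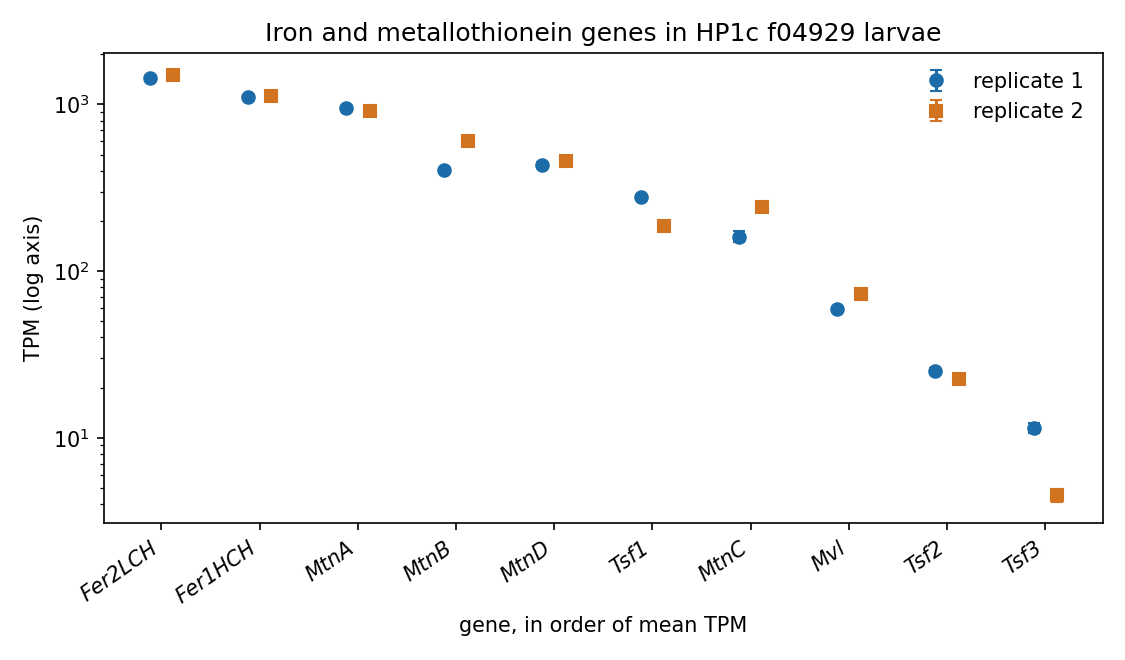
TPM of each of the 10 genes (log axis) in replicate 1 (circles) and replicate 2 (squares), with 95% counting intervals that are mostly smaller than the symbols. The ferritin genes and MtnA lie near or above 900 TPM in both libraries, and Tsf3, at 11.4 and 4.53 TPM, shows the widest gap between them.

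Ordered by mean level, the genes ran Fer2LCH, Fer1HCH, MtnA, MtnB, MtnD, Tsf1, MtnC, Mvl, Tsf2 and Tsf3. Of the neighbours in that order, MtnB and MtnD overlapped between the libraries, as did Tsf1 and MtnC. The other neighbours kept their order in both libraries. MtnA at 933 ± 22.2 TPM was below Fer1HCH by 1.17-fold in replicate 1 and 1.23-fold in replicate 2, whereas Tsf2 exceeded Tsf3 by 2.21-fold and 4.96-fold. The gap below Fer1HCH depended on the length correction. With reads divided by annotated length and scaled to the same total, MtnA stood at 674 and 656 and Fer1HCH at 1230 and 1296.

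The light chain of ferritin was the more abundant transcript of the pair in both libraries. Fer2LCH (FBgn0015221) stood at 1439 TPM in replicate 1 (interval 1426 to 1452, from 48132 reads) and at 1503 TPM in replicate 2 (1492 to 1514, from 66147 reads). Its mean was 1471 ± 45.1 TPM (n = 2). The heavy chain gene Fer1HCH (FBgn0015222) stood at 1109.9 TPM in replicate 1 (1099 to 1121, from 41052 reads) and at 1129 TPM in replicate 2 (1119.8 to 1139, from 54361 reads), with a mean of 1120 ± 13.7 TPM (n = 2). Together the pair held 0.225% of all reads in replicate 1 and 0.267% in replicate 2.

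The ratio of heavy to light chain TPM was 0.771 in replicate 1 (exact Clopper-Pearson interval 0.761 to 0.781) and 0.751 in replicate 2 (0.743 to 0.760), a mean of 0.761 ± 0.0140 (n = 2). Put the other way, there were 1.30 light chain transcripts for each heavy chain transcript in replicate 1 and 1.33 in replicate 2. The intervals of the libraries did not overlap, so the gap between the ratios exceeded counting error. With 2 libraries, that gap is itself the spread between libraries. Because the heavy chain transcripts are on average longer, the ratio of reads with no length correction was closer to 1, at 0.853 and 0.822. Fer3HCH, which encodes a mitochondrial heavy chain, stood at 2.57 and 2.64 TPM and made up 0.101% and 0.100% of all ferritin chain TPM.

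Coordinates here are those of the Ensembl annotation of BDGP6. The ferritin genes lie head to head on chromosome 3R and are transcribed away from each other. Fer1HCH runs on the minus strand from 30385573 to 30388178, and Fer2LCH on the plus strand from 30387804 to 30390584. Most transcripts of each gene were assigned to a single start. Transcripts starting at 30387860 held 91.9% ± 1.73 of the Fer1HCH TPM, and those starting at 30388830 held 97.7% ± 0.231 of the Fer2LCH TPM (n = 2), which places these starts 970 bases apart. The annotated exons of the genes share 118 bases on opposite strands (30387804 to 30387921), which are the first exon of Fer2LCH-RA. No source used here says whether the libraries were stranded, so reads from those bases may have been assigned to either gene.

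**Figure D2:**
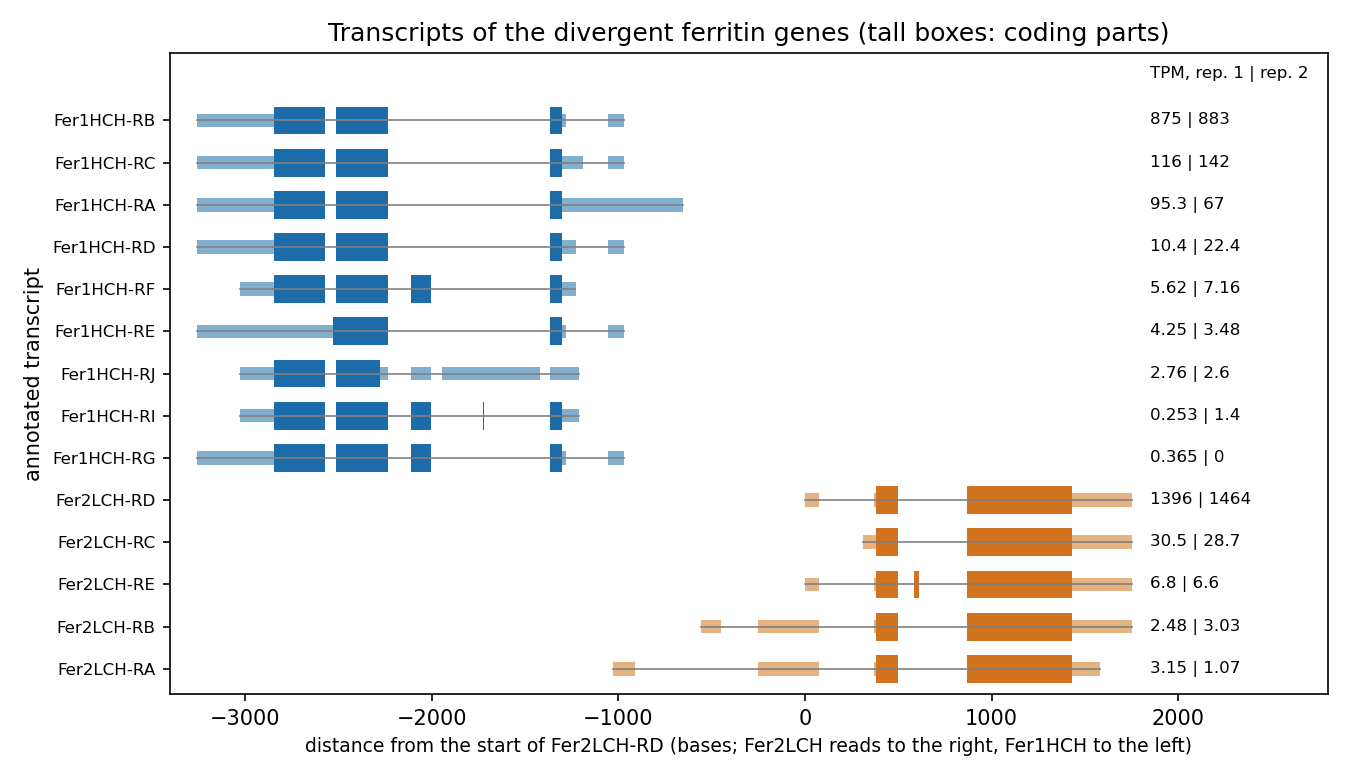
Exons of the 9 Fer1HCH transcripts (blue) and 5 Fer2LCH transcripts (orange) against the distance in bases from the start of Fer2LCH-RD, with coding parts as tall boxes and the TPM of replicates 1 and 2 at the right. Fer1HCH-RB, at 875 and 883 TPM, and Fer2LCH-RD, at 1396 and 1464 TPM, dominate their genes in both libraries.

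Among the 9 Fer1HCH transcripts, Fer1HCH-RB (FBtr0085632) carried 78.8% of the gene's TPM in replicate 1 and 78.2% in replicate 2. Fer1HCH-RC (FBtr0085633) carried 10.4% and 12.6%, and Fer1HCH-RA (FBtr0085631) 8.59% and 5.93%. These transcripts encode the same chain of 205 codons and differ in the 5′ untranslated region, which is 106 bases in RB, 198 in RC and 648 in RA. In flies, some Fer1HCH leaders contain an iron-responsive element, a hairpin bound by the iron regulatory protein Irp-1A, and alternative splicing decides its presence. The annotation used here does not mark the element, so the transcripts were not sorted by it. Across all leaders, the 205-codon form made up 98.8% ± 0.0720 of the Fer1HCH TPM (n = 2), and the other 4 coding forms the rest.

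Fer2LCH was nearly a one-transcript gene. Fer2LCH-RD (FBtr0332168) held 97.0% and 97.4% of its gene's TPM in the libraries, and Fer2LCH-RC, which starts further downstream at 30389139, held 2.12% and 1.91%. The 227-codon light chain accounted for 99.5% ± 0.0239 of the gene, with Fer2LCH-RE, which encodes 236 codons, at 0.473% and 0.439%. With the dominant transcript of each gene alone, the heavy to light ratio was 0.627 in replicate 1 and 0.604 in replicate 2. The transcripts with the outermost starts were both lower in replicate 2. Fer1HCH-RA stood at 95.3 and 67.0 TPM, and Fer2LCH-RA at 3.15 and 1.07 TPM. The first exon of Fer2LCH-RA lies within that of Fer1HCH-RA on the other strand. It also overlaps part of the first exon that Fer1HCH-RB shares with RC, RD, RE and RG. Fer1HCH-RB was not lower in replicate 2, at 875 and 883 TPM. Reads there may have been assigned to any of these transcripts, so the values are not independent.

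The transferrins covered a wide range, with Tsf1 making up 87.9% ± 0.806 of their summed TPM (n = 2). Tsf1 (FBgn0022355, X, 18387084 to 18390344, plus strand) encodes the abundant secreted transferrin of the haemolymph, which carries iron between gut and fat body. It stood at 280.0 TPM in replicate 1 (interval 276 to 284, from 18522 reads) and at 185 TPM in replicate 2 (182 to 188, from 16204 reads), a mean of 233 ± 66.9 TPM (n = 2). Nearly all of it was Tsf1-RA, since Tsf1-RC, with a 5′ untranslated region of 865 bases, had only 9 and 22 reads. Tsf2 (FBgn0036299, 3L, 12530436 to 12533724, minus strand), whose product is a component of septate junctions in fly epithelia, stood at 25.2 and 22.5 TPM (23.8 ± 1.96, n = 2). Tsf3 (FBgn0034094, 2R, 16226501 to 16229869, plus strand), which encodes a further member of the family, stood at 11.4 TPM from 900 reads in replicate 1 and at 4.53 TPM from 472 reads in replicate 2 (7.97 ± 4.87, n = 2).

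Mvl was the member with the most evenly divided isoforms. It encodes Malvolio, the fly member of the Nramp family of iron and manganese transporters, and lies on 3R (FBgn0011672, 21051383 to 21060800, minus strand). The gene stood at 59.4 TPM in replicate 1 (interval 57.7 to 61.0, from 5127 reads) and at 72.6 TPM in replicate 2 (71.1 to 74.2, from 8119 reads), a mean of 65.99 ± 9.39 TPM (n = 2). Its 5 measured transcripts have 4 different coding regions, and no transcript held more than 36.2% of the TPM in either library. Mvl-RH, with 639 codons, held 36.2% and 35.6%, and Mvl-RG, with 607 codons, held 25.9% and 32.1%. Mvl-RF held 16.05% and 19.5%, and Mvl-RE went the other way at 19.7% and 11.1%. The Mvl transcript left unmatched was not analysed here, and reads from it may have been shared among the others.

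**Figure D3:**
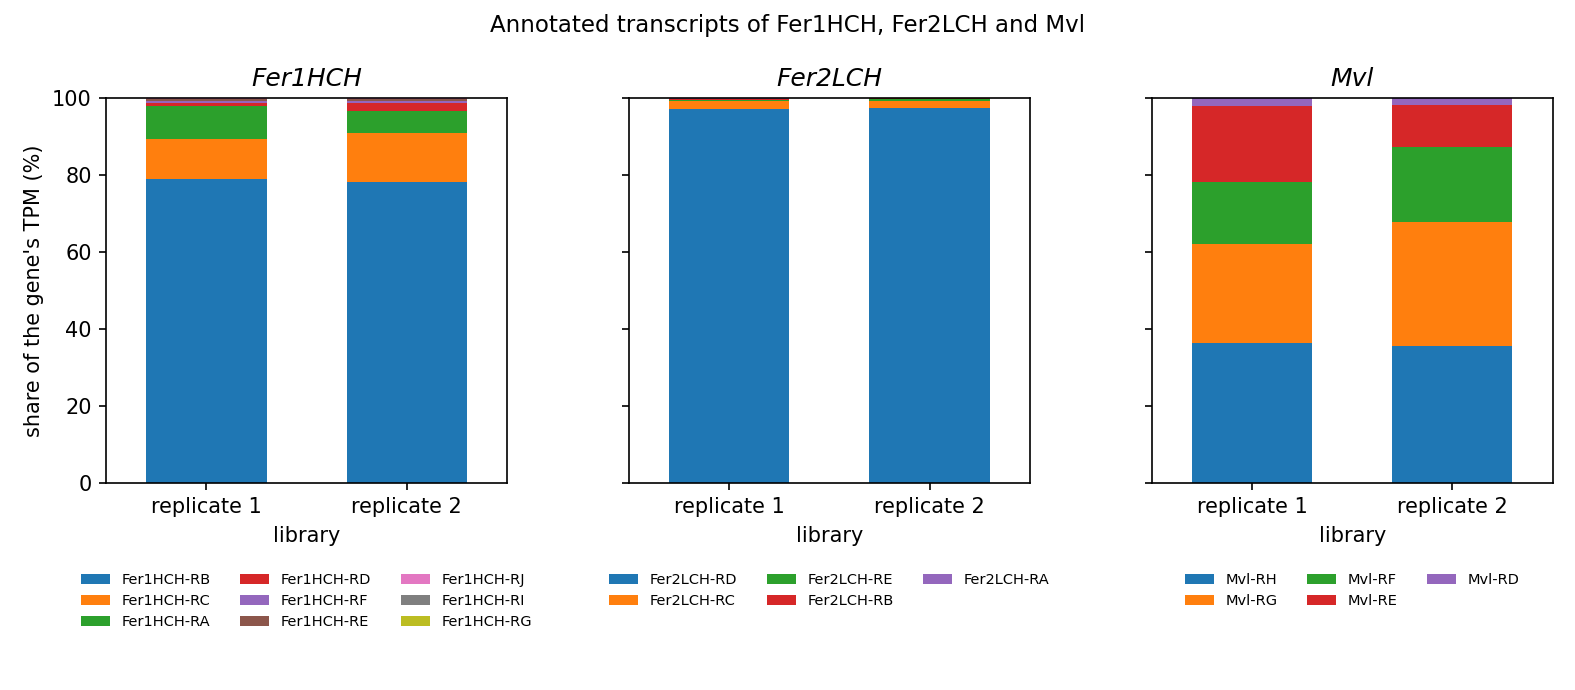
Share of each gene's TPM (%) assigned to its annotated transcripts in replicates 1 and 2, for Fer1HCH, Fer2LCH and Mvl. A single transcript holds 78.2% or more of each ferritin gene in both libraries, whereas the Mvl transcripts hold between 1.70% and 36.2%.

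The metallothioneins were led by MtnA. MtnA (FBgn0002868, 3R, 9783407 to 9784370, minus strand) stood at 949 TPM in replicate 1 (interval 925 to 972, from 6201 reads) and at 917 TPM in replicate 2 (897 to 938, from 7663 reads). MtnB (FBgn0002869, 3R, 20503102 to 20503746, minus strand) stood at 401 TPM in replicate 1 (386 to 417, from 2502 reads) and at 606 TPM in replicate 2 (589 to 624, from 4836 reads), a mean of 504 ± 145 TPM (n = 2). MtnD (FBgn0053192, 3R, 20534962 to 20535301, plus strand) stood at 434 and 455 TPM, from 2023 and 2691 reads, a mean of 445 ± 14.7 TPM (n = 2). In replicate 1 MtnD was above MtnB, and in replicate 2 below it. MtnC (FBgn0038790, 3R, 20360308 to 20360634, plus strand) was the lowest of the 4, at 161 TPM in replicate 1 (149 to 173, from 717 reads) and 241 TPM in replicate 2 (228 to 254, from 1362 reads), a mean of 201 ± 56.6 TPM (n = 2).

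With the remaining family members included, MtnA made up 45.8% and 38.3% of metallothionein TPM in replicates 1 and 2, MtnB 19.4% and 25.3%, MtnD 21.0% and 19.0%, and MtnC 7.76% and 10.05%. MtnE stood at 104 and 145 TPM and MtnF at 22.6 and 32.3 TPM. MtnC, MtnB, MtnE and MtnD lie within 174994 bases of 3R, and MtnE and MtnD are 257 bases apart. With these included, 10 of the measured genes lie wholly inside that stretch. MtnA and MtnF lie elsewhere on the arm. Altogether 7 of the 10 genes are on 3R, which holds 24.4% of all genes measured.

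The transcripts of the 4 metallothioneins share a compact structure. Each main transcript has 2 exons and 268 to 329 bases, against a median of 2119 bases over all transcripts, and encodes 40 codons in MtnA, 43 in MtnB and MtnC and 44 in MtnD. The MtnA transcript with the shorter 3′ untranslated region, MtnA-RA with 81 bases, held 99.97% and 99.99% of the gene. MtnA-RB, whose 3′ untranslated region is 452 bases, had 6 and 2 reads. MtnB-RA likewise held 99.8% and 99.5% of MtnB. Their TPM rests on an effective length that is far shorter than the transcript, such as 126 bases in replicate 1 and 121 in replicate 2 for the 268 bases of MtnC-RA. With reads divided by annotated length instead, and scaled to the same total, the mean was 665 for MtnA, 352 for MtnB, 270.4 for MtnD and 119 for MtnC. On that scale Tsf1 stood at 329 in replicate 1 and 226 in replicate 2 and MtnD at 264 and 277, so that their ranges overlapped, while MtnC, at 95.7 and 143, lay below Tsf1 in both.

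The libraries were then compared gene by gene, as a description of how far replicates of this genotype lay apart, with reads scaled by the TMM method of edgeR and no test over replicates. A gene was counted as differing if it averaged 10 reads or more, its ratio reached 2 in either direction and the interval left out 1. Of the 10 genes, 1 was counted, Tsf3, against 5.42% of the 12203 genes tested in either direction, 4.11% towards replicate 1 and 1.32% towards replicate 2. At 4-fold the count was 0 of 10, beside 1.66%. Tsf3 was 2.47-fold higher in replicate 1 (interval 2.21 to 2.76). The first exon of Tsf3 shares 169 bases with CG15706 on the other strand, which stood at 20.2 and 13.1 TPM and was 1.41-fold higher in replicate 1 (1.31 to 1.52).

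The other 9 genes stayed under 1.5-fold with this scaling, a threshold that 12.2% of all tested genes passed. Tsf1 was 1.48-fold higher in replicate 1 (interval 1.45 to 1.51). Transcripts of Tsf1 are known to rise on infection in flies. Of the 12 tested antimicrobial genes, 10 were higher in replicate 1, 9 of them at least 2-fold, with a median log2 ratio of -2.21. Of the 6 fat body genes, 4 were higher in replicate 1, the median log2 ratio was -0.46, none reached 2-fold, and the summed levels were 36464 and 30336 TPM. Of the 6 haemocyte genes, 5 were higher in replicate 2, with a median log2 ratio of 0.28. The part of these genes in the Tsf1 and Tsf3 values was not tested. The values for Tsf2 were close, with a ratio of 0.910 (0.862 to 0.961), and this direction turned with library size as the only scaling.

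MtnB and MtnC were both higher in replicate 2, by 1.49-fold (interval 1.42 to 1.57) and 1.47-fold (1.34 to 1.61), and by 1.70-fold and 1.67-fold with library size as the only scaling. MtnE and MtnF, also higher in replicate 2, had ratios of 1.37 (1.25 to 1.504) and 1.38 (1.13 to 1.70). MtnA had a ratio of 0.955 (0.923 to 0.987), which also turned to above 1 with library size alone, and MtnD one of 1.03 (0.970 to 1.09). Mvl was 1.22-fold higher in replicate 2 (1.18 to 1.27). The midgut, where metallothioneins are known to be induced by dietary metal, was represented by 9 digestive enzyme genes, of which 8 were higher in replicate 2, with a median log2 ratio of 0.50 and summed levels of 23849 and 33653 TPM. None of these 8 reached 2-fold, and the other gene, lambdaTry, went the opposite way with 47 and 12 reads, 5.07-fold higher in replicate 1. The digestive enzymes were not alone in this direction. All 6 glue genes were higher in replicate 2, with a median log2 ratio of 0.96, as were 5 of the 6 haemocyte genes, with 0.28. Fat body, antimicrobial and adult yolk genes had medians below 0, at -0.46, -2.21 and -0.50. The part of any of these lists in the metallothionein values was not tested.

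The ferritin genes differed little between the libraries. Fer1HCH had a ratio of 1.02 (interval 1.01 to 1.04) and Fer2LCH one of 1.06 (1.05 to 1.07), against quartiles of -0.19 and 0.19 in log2 ratio over all tested genes. Their direction depended on the scaling, with ratios of 1.17 and 1.21 by library size alone and of 0.951 and 0.977 from TPM without rRNA entries, an alternative chosen after seeing the data. MtnD, at 0.980, also turned in the latter. The median log2 ratio of the 10 genes was 0.04, beside 0.02 over all genes, with 6 above 0 and 4 below.

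**Figure D4:**
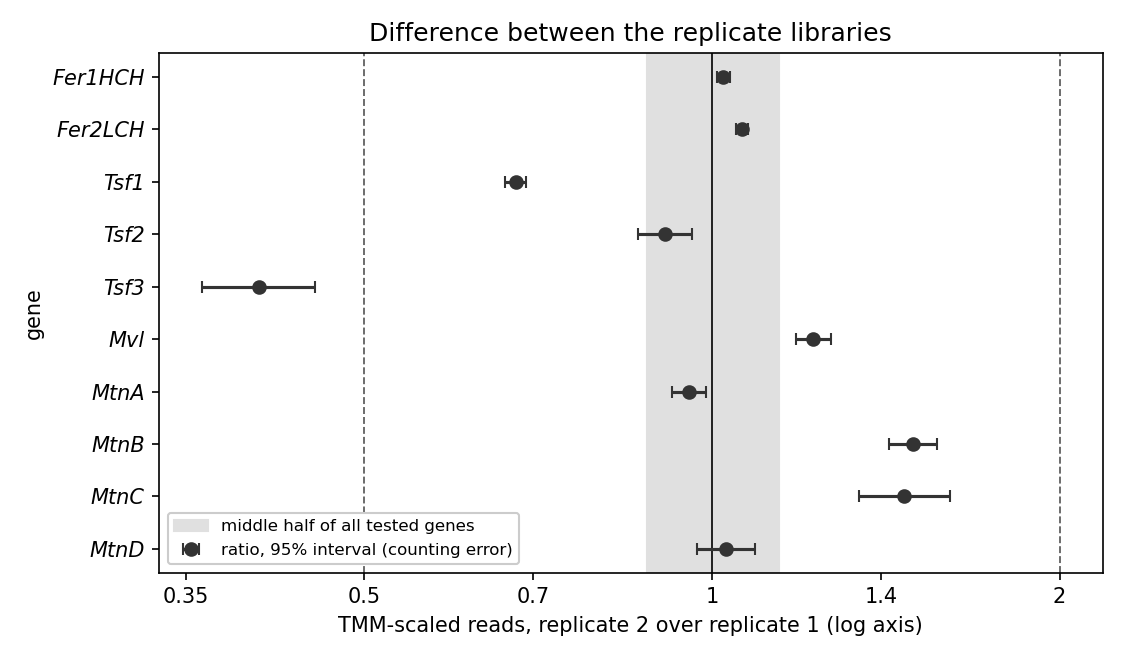
Ratio of TMM-scaled reads, replicate 2 over replicate 1 (log axis), for each of the 10 genes with its 95% counting interval; grey marks the middle 50% of all tested genes and dashed lines mark 2-fold. Tsf3, at 0.405, lies beyond the line towards replicate 1, and the ferritin genes, MtnA, MtnD and Tsf2 lie within the grey band.

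Of the 30 measured transcripts, 28 had a mean of at least 10 reads and 5 differed at least 2-fold, which is 17.9% beside 19.5% of all transcripts tested. Towards replicate 1 there were 2, beside 10.8%, and towards replicate 2 there were 3, beside 8.69%. At 4-fold there were 2, beside 9.9%. Of the 5 at 2-fold, 1 was the single Tsf3 transcript and the other 4 were minor isoforms. Fer1HCH-RD (383 and 1084 reads), Fer1HCH-RI (8 and 56 reads) and MtnB-RB (2 and 23 reads) were higher in replicate 2, and Fer2LCH-RA (127 and 57 reads) was higher in replicate 1. None of these 4 isoforms held more than 1.98% of its gene's TPM in either library. Fer1HCH-RG had 14 reads in replicate 1 and 0 in replicate 2, where 3 reads would stand for 0.0585 TPM. Its exons are shared with other Fer1HCH transcripts, to which its reads may have been assigned.

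The other genes of metal handling were measured from 6 lists with 54 genes. Of these, 51 reached 1 TPM in both libraries and 51 had enough reads for the comparison. None of the 51 differed at least 2-fold between the libraries, beside 5.42% of all genes. The median log2 ratio was 0.03, beside 0.02 over all genes.

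In the iron handling list, 8 of 9 genes were detected and 5 of 8 tested ones were higher in replicate 1, with a median log2 ratio of -0.32. The most abundant was Zip99C, which moves iron into the secretory pathway for loading of ferritin, at 173 and 123 TPM. Ho, the haem oxygenase that frees iron from haem, stood at 156 and 95.9 TPM. Irp-1A and Irp-1B, paralogs of each other in the cytosolic aconitase family, stood at 54.3 and 37.8 TPM and at 55.2 and 37.9 TPM. They are close copies, so reads may have been shared between them. All 4 lay below either ferritin chain in level.

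The list for haem synthesis had median levels of 20.0 TPM in replicate 1 and 20.2 TPM in replicate 2. That for iron-sulphur cluster synthesis had 18.3 and 17.1 TPM, beside 8.17 and 8.07 TPM over all genes. All 8 haem genes were detected, led by Urod at 35.3 and 30.7 TPM, Alas, the first enzyme of the pathway, at 25.6 and 22.0 TPM, and Coprox at 26.0 and 21.5 TPM, and their median log2 ratio was -0.14. All 10 iron-sulphur genes were detected, with a median log2 ratio of 0.07. They were led by IscU, the scaffold on which clusters form, at 69.0 and 59.9 TPM, with Grx5 at 41.0 and 52.0 TPM and Fdx2 at 44.1 and 45.3 TPM.

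Of the copper genes, all 9 were detected, with a median log2 ratio of 0.08. The copper importer gene Ctr1B stood far above its paralogs, at 274 and 149 TPM, against 32.8 and 29.8 TPM for Ctr1A and 1.53 and 2.02 TPM for Ctr1C. Among the 51 tested genes it had the lowest ratio, 0.554 (interval 0.535 to 0.574). The chaperone gene Atox1 stood at 89.1 and 88.8 TPM and the cytochrome oxidase assembly gene Cox17 at 45.2 and 53.4 TPM. MTF-1, the regulator of the metallothionein genes, was at 13.1 and 14.9 TPM. The zinc transport list had 14 of 16 genes detected, with a median log2 ratio of -0.04, and was led by Zip71B at 69.2 and 57.5 TPM, Catsup at 55.5 and 60.5 TPM and ZnT35C at 57.2 and 57.4 TPM.

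**Figure D5:**
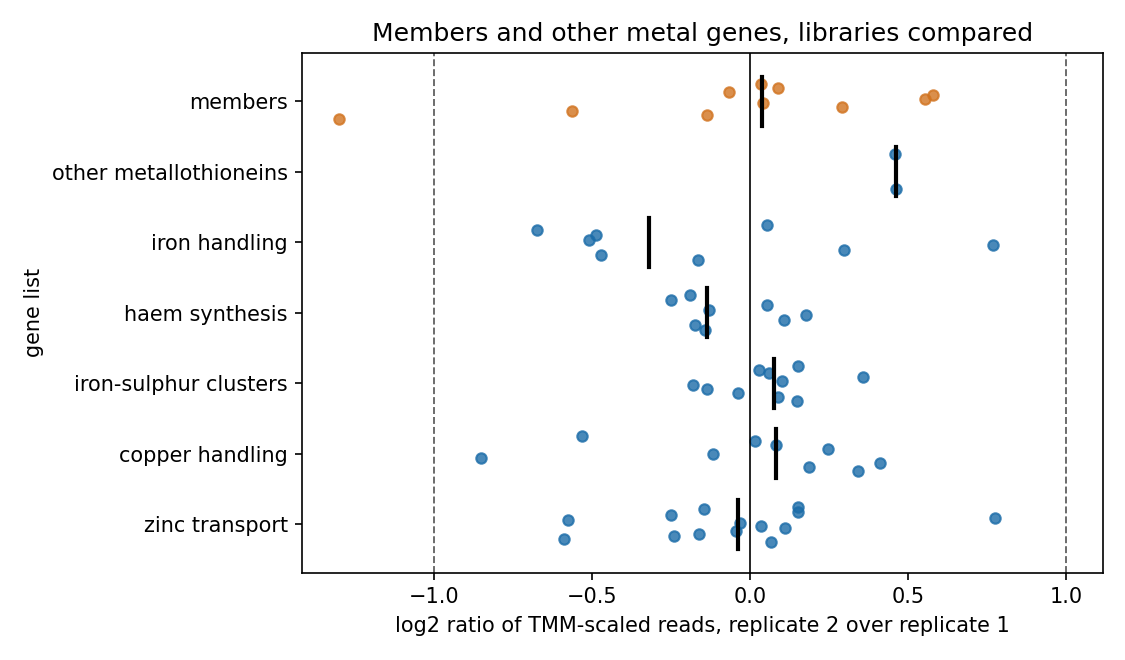
Log2 ratio of TMM-scaled reads, replicate 2 over replicate 1, for the 10 genes (orange) and the other metal genes by list (blue); each point is a gene, black bars are list medians and dashed lines mark 2-fold. Genes averaging under 10 reads are not drawn, and among the rest Tsf3, at -1.30, is the only point beyond a dashed line.

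The genes closest in level over the 2 libraries, by Euclidean distance of log2 TPM, were taken for the most abundant member of each family. For Fer2LCH they included RpS10b (distance 0.06, at 1430 and 1446 TPM) and Rack1 (0.09). For MtnA they were CG15098 (0.05, at 915 and 913 TPM), RpL10Ab (0.08) and RpS12 (0.10). For Tsf1 they were Prosbeta3, a proteasome subunit gene (0.09, at 263 and 189.8 TPM), Sply (0.10) and Jupiter (0.14). With 2 libraries this measure describes level more than pattern.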

How the data were processed

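Larval RNA was extracted with Trizol and made into libraries by Illumina protocols, per the labels. For each library the authors deposited a table of FlyBase transcripts with length, effective length, TPM and estimated counts, named in the file headers. The program and build behind these estimates were not given in the sources used here. Per the submitters' processing notes, HTSeq 0.6.1, STAR 2.5.2, bcl2fastq 2.18.0.12, Picard and FastQC were used, with no role stated.

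Of 30119 entries, 29992 were matched by identifier to Ensembl release 115 (BDGP6) and summed per gene. The other 127 held 0.0981% and 0.110% of the reads of replicates 1 and 2 and were left out. All 30 matched member transcripts had the annotated length. Estimated counts were rounded and scaled with TMM factors (edgeR 4.0.16, R 4.3.3), and log2 ratios used 0.5 added reads. Level intervals are exact Poisson and ratio intervals exact Clopper-Pearson intervals at 95%, computed with scipy 1.17.1, and PCR copies are not independent molecules. The calls were also run on simulated gene counts with Poisson error alone. Such counts hold no spread between libraries and no isoform assignment, so they cannot vouch for the calls made here. With 1 group of 2 libraries no p-value is given. The members and lists were chosen with earlier results of these data known. Named genes are all members, the 3 most abundant and any called gene of each metal list, overlapping genes and the 3 nearest in level, of which 1 is not reported here. Other genes named were chosen after their values were seen. No sequence was used.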

Additional observations from a re-analysis of the deposited data

How the results depend on the processing

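No paired analysis was possible because the labels give a single group. With each library left out in turn, the summed level of the 10 genes ranged from 4870 to 5136 TPM and the ferritin ratio from 0.751 to 0.771. The summed level was 5250 TPM with rRNA entries left out and 4709 on the same scale with annotated in place of effective length. The ferritin heavy to light ratio was 0.837 from reads, 0.770 per annotated base and, chosen after seeing the data, 0.615 from the dominant transcript of each gene. Those dominant transcripts held 93.5% of the TPM of the 10 genes and 87.8% of their reads, the latter also chosen after seeing the data. All 10 genes reached 0.5 TPM and 9 reached 5 TPM in both libraries. A 4-fold threshold left 0 of the 10 genes, beside 1.66% of all genes, and 2 of 28 transcripts, beside 9.9% of all transcripts. A mean of at least 100 reads left 2 of 23 transcripts at 2-fold. No share over all transcripts was computed at that filter, so the count has no background here. Of the other metal genes, 1 (Zip42C.1, with 8 and 2 reads) passed 2-fold without a filter on reads, again with no share over all genes computed. At 1.5-fold 5 of 51 passed, beside 12.2% of all genes: Ho, Ctr1B and ZnT86D were higher in replicate 1, and Mco1 and Zip88E in replicate 2. Scaling by library size alone moved the median of all genes by 0.19 in log2 ratio, and 5 of the 10 genes (Tsf1, Tsf3, Mvl, MtnB and MtnC) kept their direction under all 5 scalings. Tsf2 and MtnA turned with library size alone, and Fer1HCH, Fer2LCH and MtnD with TPM rescaled without rRNA entries, a scaling of the ratios chosen after seeing the data. The summed level was then higher in replicate 1, at 5287 against 5214 TPM. The planned search of promoters for metal response elements was not run, since no sequence was used. Short effective lengths limit the metallothionein levels, and few reads limit the minor isoforms.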
